A study of Mus musculus with 18 samples.

Results

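Single mammary tumours of ErbB2 knock-in (KI) mice, 5 in all and each measured on 2 arrays with the dyes exchanged, were compared with one another gene by gene. Genes were chosen by their variation among these tumours: the range, the highest minus the lowest tumour, had to exceed 2 log2 units (4-fold) and 3 times the gene's median difference between the arrays of a dye pair. The rule took 710 of 28919 measured genes and unnamed transcripts (2.46%), called variable genes here. Of these, 627 carried a gene name and 83 only the name written in the array file. Because the rule used the KI levels, those levels and the grouping of tumours derived from them are a description, with no test.

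The mice were female and of the inbred strain FVB/N, and RNA was taken from whole tissue that had been flash-frozen. The KI tumours had the genotype ErbB2 knock-in, given in the labels without a promoter or Cre line, and each was a single tumour with its own identifier. For comparison the series held 2 normal mammary glands and 2 NIC pools, each mixing equal amounts of RNA from 5 NIC tumours; NIC is not spelled out in the labels, no age is given for any group, and 1 normal gland has PI in its identifier. Every RNA was hybridised against a commercial mouse universal reference, so that a level is a log2 ratio of tumour to reference RNA, the mean of 2 arrays, and the number of arrays limits the precision. The labels do not say whether tumours came from separate mice.

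ErbB2 is a receptor tyrosine kinase that drives growth of mammary epithelium and is amplified together with its chromosomal neighbours in a class of human breast cancers. A tumour sampled whole also holds fibroblasts, vessels, leukocytes and remnants of gland, and its profile mixes their RNA with that of the tumour cells. Fewer cells of a type and less RNA per cell cannot be told apart in such samples. Tumours of one genotype can differ in the signals acting in them, such as interferon, hypoxia and Wnt, and in the stretches of chromosome they have gained.

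Dye pairs of 1 tumour correlated across genes at r = 0.886 to 0.913, and different tumours at 0.703 (tumours 1 and 2) to 0.898 (tumours 4 and 5). Between 95.2% and 98.8% of the spots on an array were well above background in the tumour channel. Image extraction of 2 arrays, one each of tumours 2 and 3, took place on another day than that of the rest, and 692 genes passed the rule without them, 633 of them among the 710. The probe representing Erbb2 stood at 0.71, 0.57, 0.85, 0.68 and 0.26 in tumours 1 to 5 (0.62 ± 0.22, SD, n = 5), against −1.08 and −1.29 in the normal glands, a level set across separately normalized tables. A dimmer Erbb2 probe ran from 1.39 in tumour 1 to 3.64 in tumour 3, a range of 2.25, and the remaining one varied by 0.15. Erbb2 itself was thus not a variable gene by its brightest probe, and its probes disagreed on how far it varied.

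Most genes differed little among the tumours. The median range was 0.32 over all 28919 genes and 0.49 over those above the median signal, against a median dye-pair difference of 0.175. The 710 variable genes had ranges from 2.00 to 5.98 with a median of 2.50; 181 exceeded 3 and 37 exceeded 4 log2 units. Variable genes were mostly bright: 73.5% lay above the median signal, and 704 were well above background in the tumour channel on all 10 arrays. Just inside the threshold lay Cpe (2.00), BC064078 (2.00) and Fam107b (2.00), and just outside it Rbms1 (2.00), Lgr4 (2.00) and Metrnl (2.00), which differ from the former by less than the rounding. A further 15 genes had a range over 2 but failed the dye-pair condition. Where a variable gene had other probes (264 genes), at least 1 of those passed the same rule for 96 (36.4%). Among all genes with other probes that share was 2.09%. At least 1 other probe exceeded a range of 1 for 172 of the variable genes, while for 92 every other probe stayed below 1. Probes of 1 gene can lie on different transcripts, and values below are those of the brightest probe.

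The rule asked for dye-pair differences that were small beside the range, so likeness of the repeat arrays was in part built in. Among the 673 variable genes measured on all 10 arrays, the tumours above the largest gap were the same on the Cy5 and the Cy3 arrays for 88.9%. Over all genes that share was 43.4%. The highest tumour was the same on both dyes for 96.7% and the lowest for 92.0%. In the authors' deposited value table of the KI arrays, 640 of the 710 genes had the same tumours above their largest gap.

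**Figure D1:**
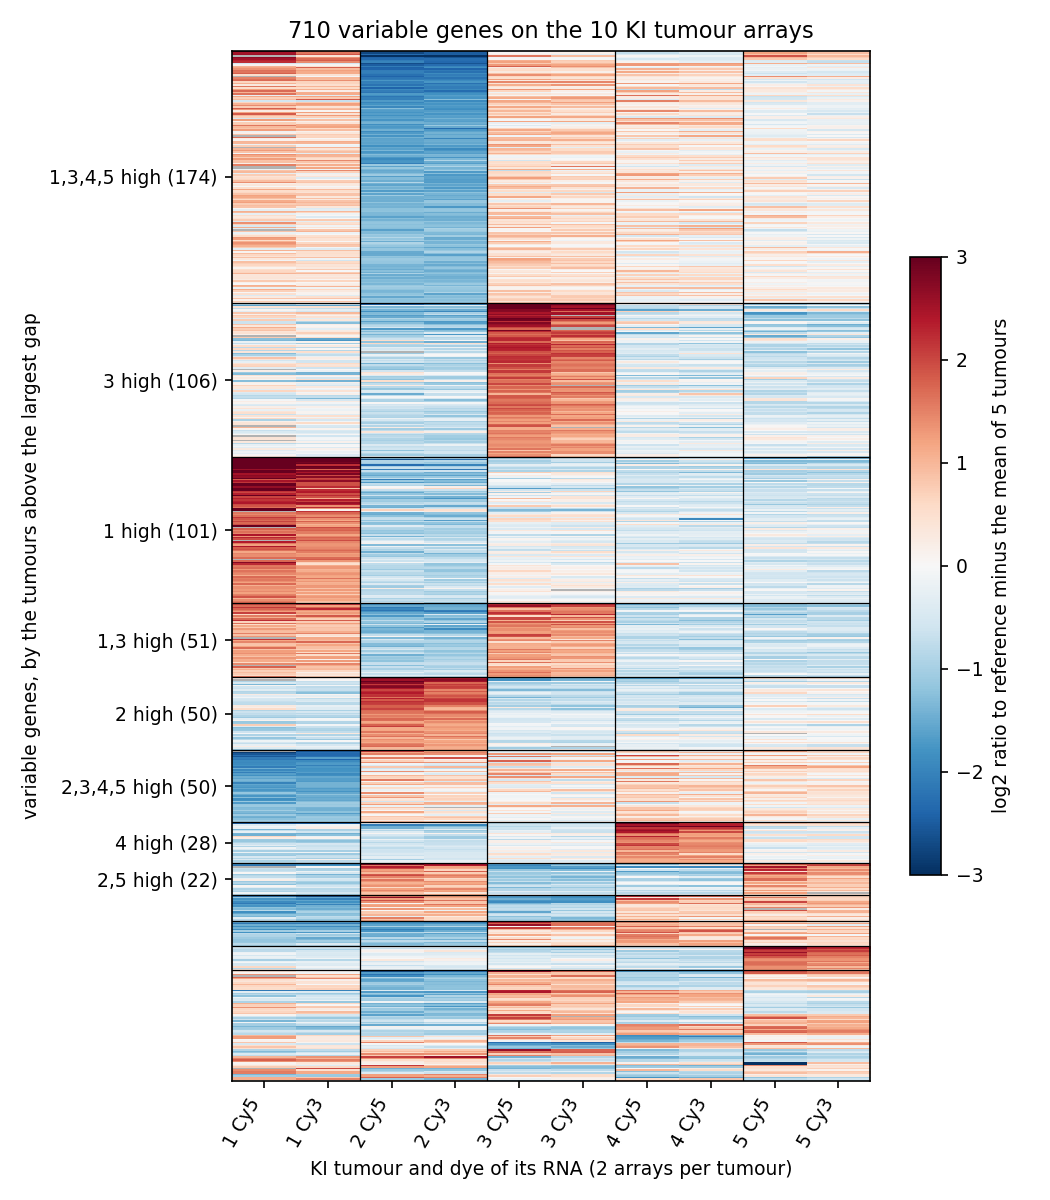
Log2 ratio to reference minus the mean of the 5 tumours (colour, red above and blue below, clipped at 3) for 710 variable genes (rows) on the 10 KI arrays (columns, 2 per tumour); grey marks a spot left out. Genes are ordered by which tumours lie above the largest gap, and both arrays of a tumour show the same blocks, the biggest being 174 genes low in tumour 2 alone.

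Each gene was described by its largest gap, the widest step between neighbouring tumours when the 5 are sorted. In 302 genes 1 tumour stood alone above the gap, in 236 1 tumour stood alone below it, and in 172 the gap divided 2 tumours from 3. The most frequent pattern, with 174 genes (24.5%, against 8.75% of all measured genes), had tumour 2 alone below. Tumour 3 stood alone above in 106 genes (14.9%, against 8.47% of all genes) and tumour 1 in 101 (14.2%, against 7.96%). Less often than among all genes, tumour 2 did so in 50 (7.04%, against 10.8%), tumour 4 in 28 (3.94%, against 5.23%) and tumour 5 in 17 (2.39%, against 4.26%). Tumours 1 and 3 were above together in 51 genes (7.18%, against 2.69% of all genes) and tumours 2 and 5 in 22 (3.10%, against 1.99%). Tumour 1 alone lay below in 50 (7.04%, against 5.98%). Tumour 2 was the highest or lowest tumour for 490 genes and tumour 5 for 111. Accordingly the number of variable genes fell to 375 without tumour 2 and to 471 without tumour 1, and lay between 542 and 666 without any other tumour.

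Several of the genes of largest range were high in tumour 1 alone. Cav2, which encodes the membrane scaffold protein caveolin-2, stood at 4.32 in tumour 1 and at −1.22, −0.96, −0.92 and −1.66 in tumours 2 to 5, a range of 5.98. Tumour 1 did not overlap the others on any array, and the Cav2 spot was saturated on 2 arrays. Cxcl5, a chemokine that attracts neutrophils, stood at 1.74, −3.83, −1.997, −1.25 and −1.64, high in tumour 1 and lowest in tumour 2. The proliferin genes Prl2c3 (2.81 in tumour 1, −1.89 to −2.38 elsewhere) and Prl2c5 (2.79 against −1.67 to −2.17) encode placental hormones so alike in sequence that their probes may share signal. Wt1, a zinc finger transcription factor of kidney and mesothelium, stood at 1.36 in tumour 1 and from −3.09 to −2.70 in the others. Speer3 stood at 4.22 in tumour 1 and between −0.08 and 0.12 elsewhere, near the level of the reference RNA. Bst1, an enzyme on the surface of stromal and myeloid cells, stood at 3.26, −1.58, 0.33, 0.72 and 0.12.

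Other tumours led in fewer of the widest genes. Ifi27l2a, an interferon-inducible mitochondrial gene, reached 4.13 in tumour 3 and stood at −0.34, −1.77, 0.66 and −0.57 in tumours 1, 2, 4 and 5. Dppa1, a gene of early embryos, reached 4.48 in tumour 3 against 0.05 to 1.52. Car8, a carbonic anhydrase relative without catalytic activity, stood at 4.38 in tumour 3 and between 0.21 and 0.41 in the others. Slc6a15, a neutral amino acid transporter, stood at −1.20, 0.97, 0.33, 3.92 and 1.98, highest in tumour 4; its other probe varied by only 0.49. Gldc, the glycine-cleaving decarboxylase, was highest in tumour 2 (3.69) and stood at 1.22, −0.45, −0.61 and 1.67 in tumours 1, 3, 4 and 5. Among all 710 genes 28 different splits occurred.

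**Figure D2:**
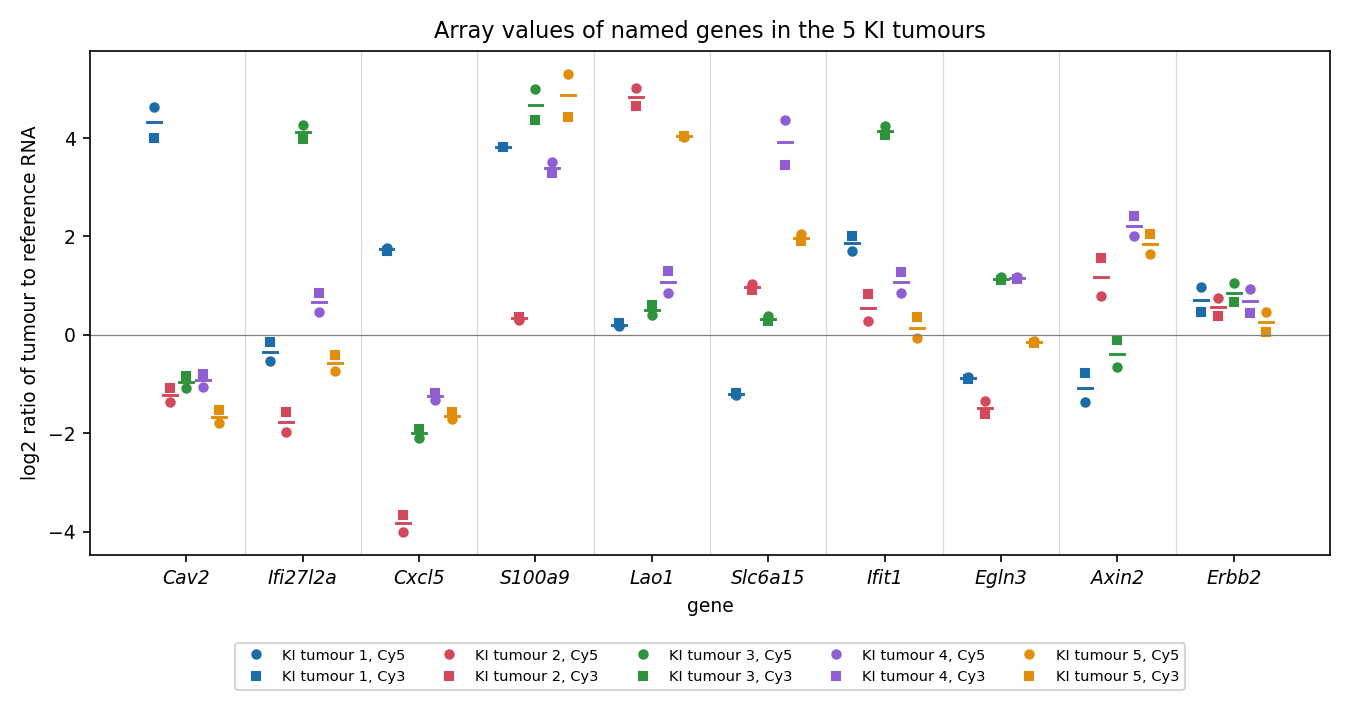
Log2 ratio of tumour to reference RNA (y axis) for 10 genes (x axis) in the 5 KI tumours; circles are arrays with the tumour in Cy5, squares with the tumour in Cy3, and bars the mean of the pair. Cav2 at 4.32 in tumour 1 and Ifi27l2a at 4.13 in tumour 3 stand far from the other tumours. Erbb2, shown by its brightest probe, stays between 0.26 and 0.85, while a dimmer probe of it has a range of 2.25.

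Genes were next grouped by 33 lists of cell types and programmes, which hold 136 of the 710 genes. Interferon response genes had the highest share, with 24 of 29 measured genes variable (82.8%) and a median range of 2.88. They include chemokines that draw lymphocytes, antiviral effectors and transcription factors such as Stat2 and Irf7 that carry the interferon signal. Tumour 3 was the highest in 26 of the 29. Of the 24 variable genes, 16 had tumour 3 alone above the gap and 8 had tumours 1 and 3 above. The median deviation of the 29 genes from their mean was 1.92 in tumour 3, 0.32 in tumour 1, −0.50 in tumour 4, −0.80 in tumour 2 and −0.88 in tumour 5. Only 7 of the list passed the rule without tumour 3, against 22 to 24 without any other.

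Antiviral effectors were spread in steps. Ifit1, which binds foreign RNA caps, stood at 1.87, 0.55, 4.15, 1.07 and 0.15 in tumours 1 to 5. Rsad2, encoding the antiviral protein viperin, stood at 2.21, −0.76, 3.09, −0.17 and −0.50, with tumours 1 and 3 together above the rest. Oasl2, a 2′-5′ oligoadenylate synthetase-like gene, stood at 2.02, 0.00, 3.80, 1.12 and 0.37. Isg15, a ubiquitin-like modifier, stood at 1.52, −0.11, 3.16, 0.74 and −0.31. Irf7, the master regulator of type I interferon genes, stood at 0.96, 0.73, 3.22, 1.51 and 0.41. The chemokine gene Cxcl10 was about as high in tumour 1 (2.16) as in tumour 3 (2.33) and lay at −1.63, −1.40 and −1.03 in tumours 2, 4 and 5. Tumours 1 and 3 thus differed in degree for effectors such as Ifit1 and hardly at all for Cxcl10. Isg15 and Irf7 were picked after their values were seen.

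Promoters of these genes are shown because the list moved together across tumours. The interferon-stimulated response element, to which a complex holding Stat2 and Irf9 binds, was searched as GAAA and GAAA with any 2 bases between them, on both strands, in the 300 bases from 250 before to 50 after the RefSeq start (GRCm38.p6, first listed start of a gene). Of the 24 variable interferon genes 17 had a promoter in that table, and 11 of them (64.7%) held the motif, against 3.25% of the promoters of 15149 measured genes and 7.74% of the 452 variable genes with a promoter. Among all variable genes it was found in 26.2% of 65 promoters where tumour 3 alone was high, in 29.0% of 31 where tumours 1 and 3 were high, and in 0 of 61 where tumour 1 alone was high. The groups with tumour 3 high include interferon genes already counted above, and all splits come from the KI levels. These shares are thus no separate evidence. Shown are the 6 members of largest range with a match before the start, picked after their values were seen, with the match nearest the start in capitals:
Ifit1 (chr19:34640784-34640833, + strand): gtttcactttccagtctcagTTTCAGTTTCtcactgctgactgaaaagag
Cxcl10 (chr5:92349073-92349122, − strand): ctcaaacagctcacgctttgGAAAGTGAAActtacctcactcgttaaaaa
Rsad2 (chr12:26456543-26456592, − strand): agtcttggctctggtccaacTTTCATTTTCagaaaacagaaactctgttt
Ifit3 (chr19:34583387-34583436, + strand): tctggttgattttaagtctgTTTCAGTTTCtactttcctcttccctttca
Isg15 (chr4:156200855-156200904, − strand): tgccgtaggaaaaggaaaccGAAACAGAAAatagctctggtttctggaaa
Gbp3 (chr3:142559985-142560034, + strand): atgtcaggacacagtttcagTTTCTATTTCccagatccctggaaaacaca
Each is written 5′ to 3′ on the strand of its gene, and none of these matches overlapped another motif searched. The match began 85 bases before the start in Ifit1, 213 in Cxcl10, 120 in Rsad2, 122 in Ifit3, 66 in Isg15 and 39 in Gbp3. A match in letters does not show that a factor binds there.

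Low levels in tumour 2 ran through several stromal and myeloid lists. Fibroblast and matrix genes, which build the connective tissue of a tumour, had 6 of 28 variable, and the list's median deviation was −0.98 in tumour 2 against −0.16 to 0.54 elsewhere. Macrophage genes had 5 of 27 variable, with −0.70 in tumour 2, and endothelial genes 0 of 21 variable, with −0.54. Matrix proteases and their inhibitors had 8 of 18 variable (−0.85 in tumour 2), neutrophil genes and chemokines 9 of 21 (−0.78). Without tumour 2 the variable genes fell to 0 of the fibroblast list, 0 of the macrophage list, 2 of the protease list and 6 of the neutrophil list. The skeletal muscle list went the other way, with 15 of 19 genes highest in tumour 2 and a median deviation of 0.43 there. Myl1, a fast muscle myosin light chain, stood at 1.12 in tumour 2 and between −1.71 and −1.55 in the others. Whether the makeup of tumour 2 in cell types has a part in the 174 genes low in it alone was not tested.

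Single members of these lists show the size of the step. Fn1, the matrix protein fibronectin, stood at −0.53, −2.93, −1.47, −1.78 and −1.55, and Col6a3, a collagen VI chain, at 0.79, −1.18, 0.50, 1.12 and 0.53. For Col6a3 the other 2 probes varied by 0.16 and 0.19, and for Fn1 the other 2 by 0.22 and 2.26. Mrc1, the mannose receptor of macrophages, stood at 3.24, 1.46, 3.44, 2.90 and 3.59. Arg1, an arginase of alternatively activated macrophages, stood at 4.37, 1.24, 3.83, 4.16 and 3.53. Tumour 2 was the lowest for each of these 4 genes, and tumours 1, 3, 4 and 5 changed order from gene to gene.

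Neutrophil genes split the tumours in more than 1 way. S100a9, a subunit of the calcium-binding alarmin calprotectin, stood at 3.81, 0.34, 4.68, 3.40 and 4.87, and its partner S100a8 at 2.62, 0.46, 3.28, 2.995 and 3.89. Csf3, the growth factor that drives neutrophil production, stood at 2.73, −0.02, 4.72, 0.74 and 4.20, with tumours 1, 3 and 5 above. The stefin genes Stfa2l1, Cstdc6 and Stfa2, protease inhibitors of neutrophils, were lowest in tumour 2 (−0.05 to 0.05) and highest in tumour 1 (4.55 to 4.94). Stefin paralogues are near copies, so their probes may share signal. Camp, the cathelicidin of neutrophil granules, stood apart only in tumour 5 (1.94 against −0.18 to 0.34) and was picked after its values were seen. Tumour 2 was the lowest for every neutrophil gene named here, while the highest tumour differed among them.

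Proteases followed the stromal step with their own order. Mmp3, a stromelysin, stood at 1.03, −2.01, 1.16, −0.90 and 0.19. Mmp13, a collagenase, stood at 1.94, −1.19, 0.81, 1.72 and 1.15, and Mmp12, the macrophage elastase, at 1.16, −0.26, 1.52, 2.86 and 2.05. These 3 genes lie side by side on chromosome 9, all with tumour 2 alone below the gap.

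Hypoxia and glycolysis genes, induced when oxygen is short, had 7 of 21 variable, and the list's median deviation was −1.01 in tumour 2, −0.18 in tumour 5, −0.04 in tumour 1, 0.42 in tumour 4 and 0.57 in tumour 3. Without tumour 2 a single one of them passed the rule. Egln3, a prolyl hydroxylase that marks HIF for degradation, stood at −0.87, −1.49, 1.14, 1.16 and −0.14. Ero1a, an oxidase for protein folding, stood at −1.36, −2.24, 0.26, −0.67 and −1.46. Adm, the vasodilator adrenomedullin, stood at −0.15, −2.47, −0.13, −0.21 and −1.47. Slc2a1, the glucose transporter GLUT1, picked after its values were seen, stood at −0.16, −2.23, −0.31, −0.38 and −1.24. Tumour 2 was the lowest for all 4, with tumour 5 next lowest for Adm, Slc2a1 and Ero1a. The core of the HIF site, ACGTG on either strand, was in the promoter of 5 of the 7 variable genes (71.4%), against 22.1% of the promoters of measured genes. Matches before the start nearest to it, in capitals, for the pair of widest range were as follows:
Egln3 (chr12:54204079-54204123, − strand): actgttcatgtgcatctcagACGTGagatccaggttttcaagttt
Ero1a (chr14:45318611-45318655, − strand): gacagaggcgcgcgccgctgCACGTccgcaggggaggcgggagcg

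**Figure D3:**
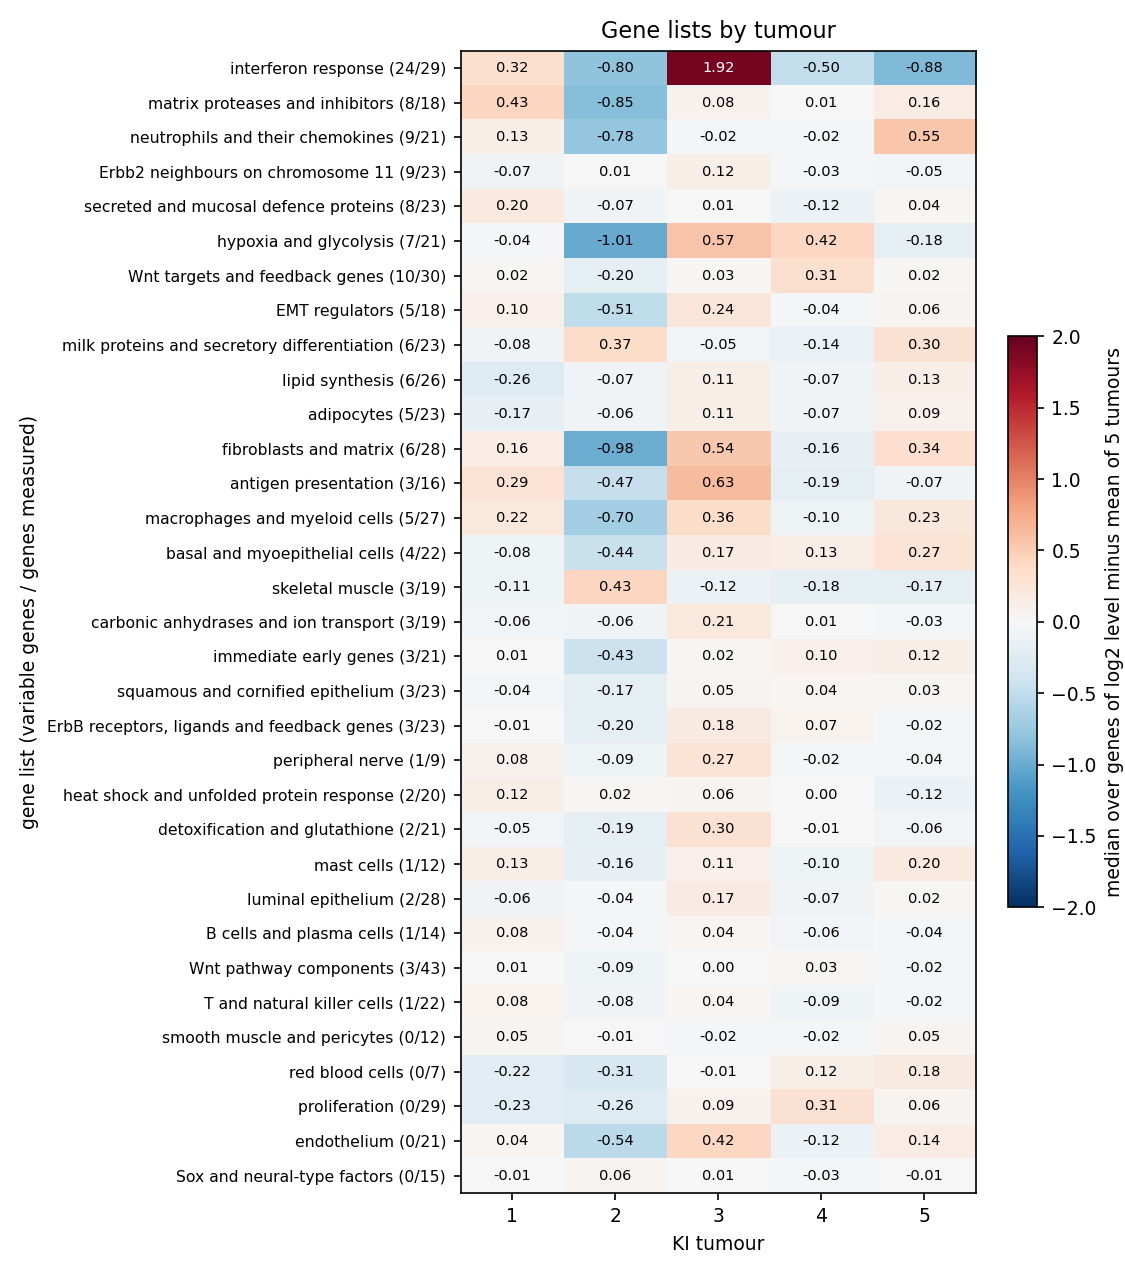
Median over the measured genes of each list of the log2 level minus the mean of the 5 tumours (colour and printed value) by KI tumour (columns), for 33 gene lists (rows) with the number of variable genes over genes measured. The interferon list reaches 1.92 in tumour 3, and the hypoxia and fibroblast lists fall to −1.01 and −0.98 in tumour 2.

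Milk genes split in more than 1 way. Over the 23 measured, the median deviation was 0.37 in tumour 2, 0.30 in tumour 5 and −0.14 to −0.05 in the others, and 14 were highest in tumour 2. Lao1, an amino acid oxidase of milk, stood at 0.21, 4.83, 0.51, 1.08 and 4.03, and Glycam1, a mucin-like milk protein, at 2.60, 4.36, 0.87, 0.65 and 4.39. Wap, the whey acidic protein, stood at 0.69, 3.92, 0.24, 2.12 and 3.16. The caseins Csn1s1 (4.95, 3.68, 5.14, 4.83 and 3.07) and Csn1s2a (4.48, 3.52, 5.01, 2.60 and 4.77), neither variable by the rule and both picked after their values were seen, were highest in tumour 3. Their median dye-pair differences were 2.78 and 1.62, too large beside their ranges of 2.08 and 2.41 to settle that order. The casein that did pass the rule was highest in tumour 2 (2.75) and lowest in tumour 3 (−0.02). Stat5b, a transcription factor of the prolactin signal, was high in tumour 5 alone (3.37, against 0.33 to 1.54); its other probe varied by 1.99. Acly, which makes acetyl-CoA for fatty acid synthesis, stood at 0.50, 2.29, 0.10, 0.64 and 3.20, and its other probe varied by 0.66. The desaturase Scd1 stood at −0.24, 1.15, 2.27, 2.30 and 2.85, lowest in tumour 1, while Scd2 stood at −2.22, −4.35, −0.86, −0.45 and −0.71, lowest in tumour 2. Pigr, the transporter of secretory immunoglobulin, stood at 1.06, 4.04, 1.73, 1.23 and 2.49. Altogether 6 of 23 milk and secretory genes and 6 of 26 lipid synthesis genes were variable.

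Wnt targets did not move as 1 group. The series title concerns β-catenin, the protein that carries Wnt signals to TCF and LEF factors on DNA. Of 30 targets and feedback genes 10 were variable, in several different splits, and the list's median deviations lay between −0.20 (tumour 2) and 0.31 (tumour 4). Without tumour 2, 5 of them passed. Axin2, a feedback inhibitor induced by β-catenin, stood at −1.08, 1.17, −0.38, 2.21 and 1.85, with tumours 2, 4 and 5 above the gap. Apcdd1, a Wnt inhibitor at the cell surface, stood at −0.43, −2.18, −0.79, 2.22 and 0.24, and Lef1 at −1.38, −2.51, −1.72, 0.08 and −2.17, both highest in tumour 4. Tnfrsf19, a receptor gene, stood at −0.05, 2.56, 1.73, 3.82 and 3.27, lowest in tumour 1. Jag1, a Notch ligand, stood at 1.69, −0.94, 2.50, 1.97 and 0.87, lowest in tumour 2. Other probes of Lef1, Jag1 and Tnfrsf19 varied by 0.57, 0.29 and 1.12. Ctnnb1, which encodes β-catenin, was not variable by the rule (1.29, 0.24, 1.80, 0.94 and 0.67; range 1.56). The motif CTTTGAT of TCF and LEF factors was in 0 of 8 promoters of the variable targets, against 3.14% of the promoters of measured genes, which says only that these letters are not in those windows.

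Basal cell genes were higher in tumours 4 and 5 than in tumours 1 and 2. Krt5, a keratin of basal epithelium, stood at 0.17, 0.11, 1.94, 2.41 and 1.98. Trp63, the transcription factor that maintains basal cells, stood at −0.12, 0.79, 1.84, 3.38 and 2.74, and Krt15 at −0.45, 1.003, 0.09, 2.02 and 2.33; tumour 3 lay with tumours 4 and 5 for Krt5 and Trp63 but not for Krt15. Of 22 basal and myoepithelial genes 4 were variable. Tumour 4 was also alone high for Krt33b (3.09, against 0.13 to 1.396, with 0.12 as the range of its other probe) and for the meiosis gene Syce1 (0.69, against −2.16 to −1.93). Areg, a ligand of the EGF receptor, stood at 2.48, −1.06, 1.84, 2.24 and 1.18, lowest in tumour 2. No variable gene was found among 29 proliferation, 21 endothelial, 12 smooth muscle, 15 Sox and neural-type or 7 red blood cell genes. With 2.46% of all genes variable, lists this short can hold none without being unusually steady. Smaller shifts were present: 20 of the 29 proliferation genes were highest in tumour 4 (median deviation 0.31), and 16 of the 21 endothelial genes were lowest in tumour 2.

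Variable genes often lay side by side on the chromosomes. In the order of 19100 named genes, 627 were variable (3.28%), and 142 of the 1252 direct neighbours of variable genes were variable themselves (11.3%), each adjacent pair counting from both sides. In all, 120 variable genes (19.1%) had at least 1 variable neighbour. Of 71 adjacent pairs of variable genes, 30 had the same tumours above the gap. Without tumour 2 the share of neighbours was 8.15%, and the share of all ordered genes that were variable fell as well, to 1.68%. No whole chromosome shifted as far: the median deviation of a chromosome's brighter genes was largest for chromosome 15 in tumour 2 (−0.18) and chromosome 18 in tumour 1 (0.13).

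A run was counted where at least 3 variable genes with the same split lay within 10 consecutive measured genes, and 10 runs were found. Of these, 5 had tumour 2 alone below: the Mmp13, Mmp12 and Mmp3 genes, S100a6, S100a8 and S100a9 on chromosome 3, the stefin genes on chromosome 16, Moxd1, Ccn2 and Arg1 on chromosome 10, and Klf4, Ctnnal1 and Pakap on chromosome 4. Between Ccn2 and Arg1 lay another variable gene that went the other way, highest in tumour 2 (3.41) and lowest in tumour 1 (1.04). A pair of runs on chromosomes 1 and 5 had tumours 1 and 3 above and consisted of interferon-inducible families, Ifi207, Ifi204, Ifi203, Ifi202b and Ifi205 in one and Gbp8, Gbp9 and Gbp6 in the other. Ifi202b stood at 0.58, −2.12, 0.35, −1.55 and −1.79, and Gbp6 at 1.86, −0.06, 2.27, 0.15 and −0.24. Members of the Ifi, Gbp, S100 and stefin families resemble each other, and shared signal between their probes was not tested. Bace2, Mx1 and Mx2 on chromosome 16 had tumour 3 alone above; the antiviral GTPase gene Mx2 stood at 2.19, 0.82, 3.78, 1.21 and 0.90. In these 8 runs the genes that were not variable, with 5 more on each side, had median deviations between −0.21 and 0.28 in each tumour.

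The longest run lay on chromosome 6, where 7 variable genes within 13 consecutive genes had tumour 1 alone above. They are not a gene family. From one end, Tes, a focal adhesion protein, stood at 4.13 in tumour 1 and at 0.59, 0.31, 0.81 and 0.33 in the others. Beside Cav2, Cav1, the main coat protein of caveolae, stood at 1.34 in tumour 1 and at −2.48, −1.45, −2.04 and −2.03. Met, the receptor of hepatocyte growth factor, stood at 2.65 in tumour 1 and at 0.43, 0.34, 0.16 and 0.09. Capza2, an actin-capping subunit, stood at 2.38 against 0.54, 0.01, 0.13 and 0.20. St7 stood at 3.69 against −0.25, −0.51, −0.34 and −0.53, and Lsm8, a subunit of an RNA-binding ring, at 2.50 against −0.40, −0.57, −0.27 and −0.48. Tumour 1 was clear of the other 4 for all 7 genes. The eighth variable gene of the span, Cttnbp2, stood at 1.09, 0.20, 1.52, 2.45 and 1.74, highest in tumour 4 and lowest in tumour 2. The 15 genes in and beside the run that were not variable had a median deviation of 0.01 in tumour 1, but some of them were also high there alone, Gm4876 at 1.25 against −0.09 to 0.02 and Ankrd7 at 1.48 against −0.11 to 0.27. Cttnbp2, Gm4876 and Ankrd7 were picked after their values were seen. Other probes varied by 2.35 for Cav2, 1.86 for Cav1, 3.76 for Capza2 and 3.58 for St7, and by 0.11 for Tes. Spots of Cav2, Tes, Capza2 and Lsm8 were saturated on 2 arrays each and those of Cav1 and St7 on 1, which can only understate a high level.

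The other run, on chromosome 11, had tumour 2 alone above. Dnah17, a dynein heavy chain of cilia, stood at 0.08, 3.68, 0.73, 0.01 and −0.06. Timp2, an inhibitor of matrix proteases, stood at −0.30, 1.46, −1.02, −1.51 and −0.94. C1qtnf1 stood at 1.36, 3.63, 0.58, 1.64 and 2.25, and Engase, which trims N-glycans in the cytosol, at 0.56, 2.90, 0.02, 0.31 and 0.54. Other variable genes of that window had other splits: Socs3, an inhibitor of cytokine signals, stood at 1.86, −1.78, −0.27, −0.55 and −0.10, highest in tumour 1 and lowest in tumour 2, and Lgals3bp at 1.70, 3.46, 2.85, 1.38 and 0.90. Both were picked after their values were seen. The 13 genes there that were not variable had a median deviation of 0.24 in tumour 2 and −0.18 to 0.04 elsewhere. The other probe of Dnah17 varied by 0.14 and that of Engase by 1.46.

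Around Erbb2 itself, also on chromosome 11, 10 of 25 consecutive genes were variable, with no split common to all of them. On one side, Fbxl20 (1.26, 3.84, −0.38, 0.45 and 0.91) and Med1, a Mediator subunit (2.19, 4.47, 1.43, 1.32 and 1.505), were highest in tumour 2. Cdk12, a kinase of RNA polymerase II, stood at 0.27, 1.85, 3.29, −0.02 and 0.15, high in tumours 3 and 2. Nearer to Erbb2, Stard3, a cholesterol carrier, stood at 1.37, 2.99, 4.16, 3.78 and 3.44, and Pgap3 at 2.16, 2.83, 4.58, 3.31 and 3.49, both lowest in tumour 1. On the other side Ormdl3, a regulator of sphingolipid synthesis, stood at 0.43, 3.0, 4.10, 3.48 and 3.01. Beyond it, Psmd3, a proteasome subunit (0.82, 0.57, 2.95, 0.26 and 2.71), and Med24 (0.26, 0.23, 2.88, 0.35 and 2.75) were high in tumours 3 and 5. Csf3 was highest in those tumours too, but tumour 1 (2.73) also lay above its gap. Grb7, an adaptor that binds ErbB2, was high in every tumour (4.06, 4.46, 4.27, 4.27 and 4.005) and so was not variable. Erbb2 was not variable by its brightest probe either. Its dimmer probe stood at 1.39, 2.38, 3.64, 2.98 and 3.20, with a median dye-pair difference of 0.80. That probe was lowest in tumour 1 and highest in tumour 3, as were Stard3, Pgap3 and Ormdl3. Stac2, an adaptor of calcium channels, stood farthest out on the first side at 0.41, −0.79, 1.99, 2.25 and 1.26. Tumour 3 was the highest for 7 of the 10 genes, on both sides of Erbb2, tumour 2 for Fbxl20 and Med1, and tumour 4 for Stac2. Stard3, Pgap3, Psmd3, Med24 and Grb7 were picked after their values were seen.

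**Figure D4:**
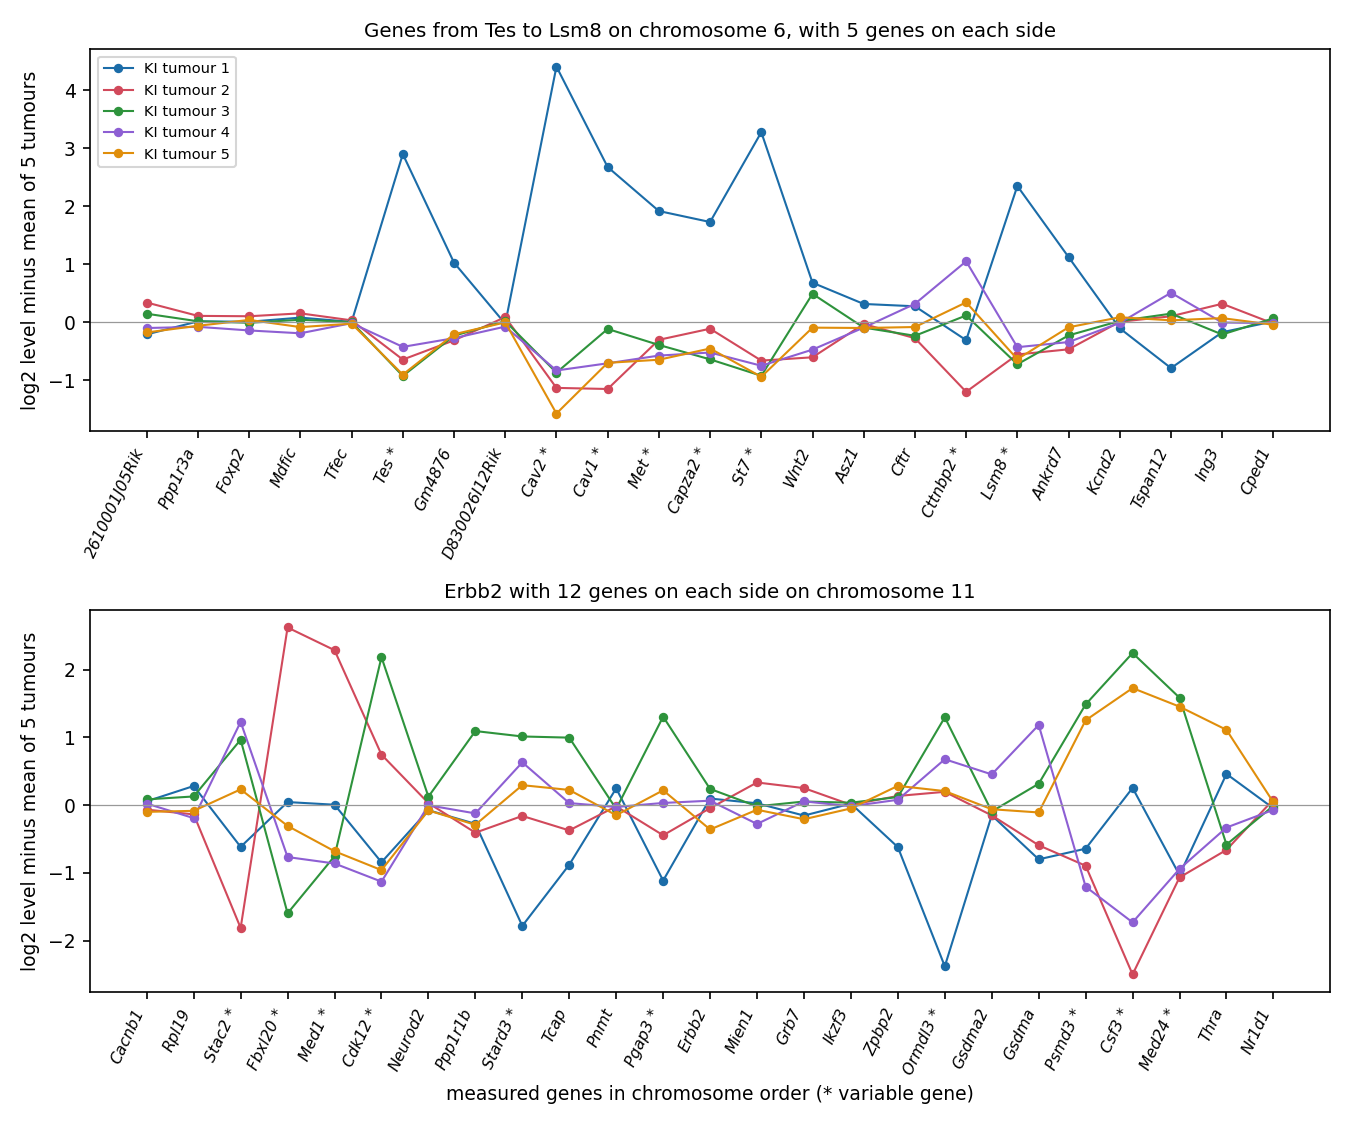
Log2 level minus the mean of the 5 tumours (y axis) for measured genes in chromosome order (x axis, evenly spaced; an asterisk marks a variable gene), one line per KI tumour. Each gene, Erbb2 included, is shown by its brightest probe. On chromosome 6 tumour 1 stands alone above at 7 of the 8 variable genes from Tes to Lsm8 but not at Cttnbp2, and around Erbb2 tumour 2 leads at Fbxl20 and Med1 while tumours 3 and 5 lead at Psmd3, Csf3 and Med24.

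The NIC pools and normal glands were not used by the rule. Scale and direction of their table were taken to be those of the KI table, without scanner values to check them, and every sign below rests on that. Their comparison within 1 deposited table gave a test of the variable genes in other samples. In limma's fit of 2 pools against 2 glands with Benjamini-Hochberg adjustment over all genes, 117 of the 710 variable genes (16.5%) were higher in the pools at an adjusted p under 0.05, against 8.78% of all genes, and 156 (22.0%) were lower, against 9.81%. Among all genes above the median signal 12.03% were higher and 9.005% lower, against 16.9% and 23.6% of the 522 variable genes among them. With the KI tumours in the fit too, which then set much of the spread and in which these genes were chosen to vary, the order turned: 7.04% of the variable genes were higher and 10.3% lower, against 14.8% and 21.1% of all genes. The median size of the difference was 1.21 over the variable genes and 0.38 over all. With either pool left out no gene passed (0 calls by limma, 364 variable genes at an unadjusted p under 0.05), so that these counts rest on both pools.

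The direction in NIC pools differed between the splits by count. Of the 50 genes low in KI tumour 1 alone, 26 were higher and 6 lower in the pools than in normal glands. Conversely, of the 101 genes high in tumour 1 alone, 3 were higher (2.97%) and 28 lower (27.7%). Of the 51 high in tumours 1 and 3, 1 was higher (1.96%) and 18 lower (35.3%). The 106 genes high in tumour 3 alone gave 28 higher (26.4%) and 8 lower (7.55%). The 174 low in tumour 2 alone gave 24 higher (13.8%) and 48 lower (27.6%), nearer to the shares of all variable genes. These differences between splits were not tested.

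Several variable genes stood among the strongest differences between pools and glands, all with limma's adjusted p. Lower in the pools were Pdk4, a kinase that spares glucose (−7.42 ± 0.11 SE, adjusted p = 0.00775), Myl1 (−6.17 ± 0.35, adjusted p = 0.00946), the fatty acid transporter Cd36 (−6.02 ± 0.12, adjusted p = 0.00775) and Klra1, a natural killer cell receptor of a large gene family (−5.69 ± 0.52, adjusted p = 0.0156). Higher were Stac2 (5.59 ± 0.18, adjusted p = 0.00775), the carbonic anhydrase Car12 (5.37 ± 0.17, adjusted p = 0.00775), the transcription factor Etv1 (5.06 ± 0.12, adjusted p = 0.00775) and Bhlha15, a factor of secretory cells (4.98 ± 0.40, adjusted p = 0.0131). In the KI tumours Pdk4 was high in tumour 1 (4.0, against 0.46 to 1.65), and Etv1 stood at −1.30, −0.55, 0.71, 0.69 and −0.93. Of the 24 variable interferon genes 8 were higher and 2 lower in the pools, and of all 29 measured on that list 10 and 3. Among all genes 8.78% were higher and 9.81% lower. Ifit1 was higher by 2.63 ± 0.27 SE (limma, adjusted p = 0.0182). Axin2 was lower in the pools by limma (−4.68 ± 0.14 SE, adjusted p = 0.00775), at −3.05 and −2.97 in the pools and 1.53 and 1.81 in the glands.

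Set beside the KI tumours in the deposited tables, which were normalized separately, both NIC pools lay within the KI range for 377 of the 710 genes (53.1%, against 33.8% of all genes). They lay above it for 46 (6.48%, against 14.7%) and below it for 153 (21.55%, against 16.4%). Both normal glands lay within it for 354 (49.9%, against 16.4% of all genes), above it for 71 (10.0%, against 30.4%) and below it for 150 (21.1%, against 23.7%). Wider ranges hold more values, so the shares within and outside the range follow in part from the rule. The 2 NIC pools differed by a median of 0.32 over the variable genes (0.14 over all) and the 2 glands by 0.39 (0.22 over all). Of the variable genes 13 (1.83%, against 0.107% of all genes) differed by more than 2 log2 units between the pools and 21 (2.96%, against 0.674%) between the glands. A pool averages 5 tumours, so the spread among single NIC tumours was not measured.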

How the data were processed

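Two-colour oligonucleotide arrays of 43790 spots were used. Scanner files of the 10 KI arrays hold spot and background intensity per channel and a log10 ratio, as the authors deposited them and written by Agilent Feature Extraction per the file headers. Values in the authors' deposited tables are log2 ratios with the reference as denominator, as set against the scanner files for the KI arrays and assumed alike for the NIC and normal arrays; RMA is named in the submitters' processing notes with no role, and no source used here gives further steps. Dyes were taken from the label fields, against which the labels' protocols are reversed on 7 KI arrays.

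Intensities were corrected with limma's normexp (offset 50) and loess within arrays, with control spots at weight 0 and outlier spots (0.288%) left out. Main values correlated with the deposited columns at r = 0.982 to 0.988. Values were averaged over the dye pair. The probe with the highest mean signal stood for a gene, 41174 probes giving 28919 genes or unnamed transcripts; accessions, symbols and older symbols were matched to a RefSeq table (GRCm38.p6), and 10140 probes kept the file's name. A mean uses 1 array where the other spot was left out (37 variable genes), and 24 variable genes were saturated on at least 1 array.

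NIC pools were tested against normal glands with limma on the deposited log2 ratios of these 4 RNA samples (lmFit and eBayes, two-sided). P-values measure the spread between these samples, which may be technical. The probe at each spot of those arrays was taken from the KI scanner files. The rule and the fit were tested on simulated data. Variable genes, lists and alternatives were chosen with earlier results of these data known. Named were the 20 genes of largest range, up to 4 per list, up to 6 per frequent split, members of runs, the genes nearest the threshold, Erbb2, Axin2 and Ctnnb1, and the strongest NIC differences, with exceptions marked; for brevity not every gene so chosen is printed. Alternatives covered the deposited table, the scanner's log ratio, background, dyes, probes, thresholds and leaving out each sample. Some genes that the naming rule took are not reported here.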

Additional observations from a re-analysis of the deposited data

Results flagged for a closer look

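For 21 of 112 genes named in the text, 1 tumour stood apart from the other 4: its gap to the nearest tumour, as a share of the gene's whole range, exceeded Dixon's critical value of 0.71. The value serves here as a descriptive cut-off, not as a test. Chance flags about 1 in 20 groups that were not selected, but these genes were chosen from the same tumour values by range, split and run. Of all genes 6.64% passed it, and of the 710 variable genes 13.1%. Tumour 1 stood above for Speer3 (0.953), St7 (0.934), Wt1 (0.913), Prl2c3 (0.906), Lsm8 (0.904), Prl2c5 (0.899), Cav2 (0.876), Tes (0.869), Met (0.866), Capza2 (0.777) and Cav1 (0.729), of which 7 are the run on chromosome 6. Tumour 2 stood above for Myl1 (0.943), Engase (0.812), Dnah17 (0.789) and Med1 (0.725), and below for S100a6 (0.869), Arg1 (0.731) and Col6a3 (0.728). Tumour 3 stood above for Car8 (0.952), tumour 4 for Syce1 (0.917) and tumour 5 for Camp (0.754).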

How the results depend on the processing

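The rule took 710 genes, and 1130 in the authors' deposited KI table (689 of them among the 710), where ranges were wider. A range threshold of 1.5 gave 1393 and one of 3 gave 181. Leaving out 1 tumour gave 375 (without tumour 2) to 666 (without tumour 5), and 471 without tumour 1; fewer tumours narrow a range. The share of variable direct neighbours was 13.8% at the threshold of 1.5 and 8.15% to 11.5% with 1 tumour left out, lowest without tumour 2. The share of all ordered genes moved too, from 3.28% under the main rule to 6.30% at 1.5 and 1.68% without tumour 2. The other processing alternatives gave 578 to 1021 genes. Between NIC pools and normal glands limma called 5376 genes, and 0 to 4232 with 1 sample left out; the 0 came without either pool, with 6398 and 6976 genes at an unadjusted p under 0.05. It called 2042 on the Cy3 samples alone, 10633 with a random block per RNA over all 8 arrays, 10396 with all 9 RNA samples in the fit, and 3424 of the genes above the median signal. Variable genes higher in the pools numbered 117, and 0 to 98 with 1 sample left out, 189 with the random block and 50 with all 9 samples; those lower numbered 156, and 0 to 150, 103 on Cy3 and 73 with all 9. The cause of these differences was not tested. No paired analysis was possible because the result on the KI tumours comes from no test and the numbers of pools and glands are only names.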
